A study of Mus musculus with 60 samples.

Results

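The mRNAs of 5 transcriptional repressors of the circadian clock were measured in the kidney: the REV-ERB nuclear receptors Nr1d1 and Nr1d2, the DEC proteins Bhlhe40 (DEC1) and Bhlhe41 (DEC2), and CHRONO (Ciart). They were chosen by name, and their Ensembl rows were matched to mouse gene symbols of GENCODE. All 5 were found among the 55335 genes counted and were retained among the 15546 genes that reached 1 CPM (counts scaled to the size of the library) in any sample.

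The samples were 60 kidneys of male mice of C57BL/6J background, with 5 mice of each of 2 genotypes at zeitgeber time (ZT) 0, 4, 8, 12, 16, and 20, where ZT0 is the start of the light phase of a day of 12 h light and 12 h darkness. The cKOt mice carried floxed Bmal1 (Arntl), the Pax8-rtTA transgene, and the LC-1 Cre transgene (Bmal1lox/lox/Pax8-rtTA/LC-1 Cre). Their control littermates carried floxed Bmal1 alone (Bmal1lox/lox). From 8 weeks of age all mice of either genotype drank doxycycline (DOX) at 2 mg/ml with sucrose at 20 mg/ml for 2 weeks, and kidneys were taken a month after its end. The Pax8 promoter drives the transgene in the tubular epithelium, so cells outside the tubule keep Bmal1. The labels name the renal tubule as tissue, whereas the methods describe pieces of frozen kidney, and defining markers of endothelium (Pecam1, 67.5 CPM on average in control mice) and of podocytes (Podxl, 233 CPM) were present beside those of the proximal tubule (Slc34a1, 4346 CPM). The question was how these repressors are expressed over the day when BMAL1 is removed from the tubule.

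In the molecular clock, the activator BMAL1 forms a heterodimer with CLOCK or NPAS2, binds E-box elements, and drives the genes of its own repressors. REV-ERBα (Nr1d1) and REV-ERBβ (Nr1d2) are nuclear receptors without an activation function that bind response elements of the AGGTCA type in the promoters of Bmal1 and other genes and recruit a corepressor complex with the histone deacetylase HDAC3. DEC1 and DEC2 are basic helix-loop-helix proteins that compete for E-boxes. CHRONO binds BMAL1 and represses the heterodimer. Transcripts of REV-ERBs and of CHRONO usually peak in the light phase, in antiphase to Bmal1.

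Promoter sequence is shown because the deleted factor binds E-boxes. RefSeq windows of 300 bases (250 before and 50 after the start of the transcript, GRCm38.p6) were found for 4 of the 5 genes, and the table held no window for Bhlhe40. Searched on both strands were the E-box CACGTG, the related E-prime box CACGTT, the nuclear receptor hexamer AGGTCA, the D-box TTATGTAA with its variant TTACGTAA, and the cAMP response element TGACGTCA, and no match of one overlapped another. The Ciart window held 3 copies of CACGTG, starting at -116, -58, and -44 from the start. At least 1 copy was held by 7.15% of the 32851 windows and at least 3 copies by 0.0883% of them (29 windows). The Bhlhe41 window held 1 copy of CACGTG at -153. In the Nr1d1 window the reverse complement AACGTG of the E-prime box was found at -28, and 4.68% of all windows held that element. The Nr1d2 window held AGGTCA at -77, which 16.3% of all windows held, and none of the E-box letters searched. The D-box letters, their variant, and the cAMP response element were in none of the 4 windows and in 0.938%, 0.119%, and 1.79% of all windows. A match is a description of the letters and not a binding site. Below are the bases upstream of both the RefSeq and the GENCODE start, 5′ to 3′ on the strand of the gene (the minus strand in all 4), with matches in capitals. They lie at chr11:98775378-98775627 (Nr1d1), chr14:18239128-18239356 (Nr1d2), chr6:145865559-145865670 (Bhlhe41), and chr3:95882252-95882478 (Ciart).
Nr1d1: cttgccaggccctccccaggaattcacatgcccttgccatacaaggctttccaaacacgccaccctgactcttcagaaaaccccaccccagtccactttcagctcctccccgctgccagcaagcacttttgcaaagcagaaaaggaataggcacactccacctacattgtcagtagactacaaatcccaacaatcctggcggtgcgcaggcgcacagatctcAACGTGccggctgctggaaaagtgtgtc
Nr1d2: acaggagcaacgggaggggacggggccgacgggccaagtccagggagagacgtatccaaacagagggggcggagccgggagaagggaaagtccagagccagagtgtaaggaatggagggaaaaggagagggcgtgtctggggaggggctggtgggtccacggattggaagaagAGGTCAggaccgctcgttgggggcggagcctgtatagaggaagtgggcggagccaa
Bhlhe41: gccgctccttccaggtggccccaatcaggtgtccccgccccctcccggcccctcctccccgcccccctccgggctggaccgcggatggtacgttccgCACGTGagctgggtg
Ciart: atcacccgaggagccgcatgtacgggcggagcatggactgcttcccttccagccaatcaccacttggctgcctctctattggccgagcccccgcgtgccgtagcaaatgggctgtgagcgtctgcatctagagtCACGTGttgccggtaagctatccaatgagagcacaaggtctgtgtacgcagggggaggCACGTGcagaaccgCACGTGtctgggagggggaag

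The depth was 17791420 to 20906706 counts on genes per mouse. Values in CPM are normalized for library size by the trimmed mean of M values (TMM). Fold changes are from edgeR's quasi-likelihood fit, which also holds 2 factors of unwanted variation (RUVs), so they need not equal the ratios of mean CPM. Its p values were adjusted over all retained genes, and a gene is said to have passed at an adjusted p below 0.05. The targeted gene, Arntl in the files, ranged from 1.93 to 57.1 CPM in control mice and from 14.6 to 26.8 CPM in cKOt mice. It was counted over the whole gene. Any shortened transcripts, and Arntl of cells that keep the gene, were not told apart. Replicate 5 of the control mice at ZT0 stood apart in Bhlhe41 and Ciart. It also had the lowest Arntl of its group, at 31.3 CPM against 47.6 to 57.1 CPM in the other 4. Replicate 4 of the cKOt mice at ZT16 was marked for removal by the authors. Both were kept, and each of the 5 repressors was lower over the day with and without either of them. Of 10 marker lists of kidney cell types, 6 of 6 endothelial genes and 4 of 5 macrophage genes were lower in cKOt mice, with median log2 fold changes of -0.11 and -0.23. Their summed levels overlapped between genotypes, with 396 to 496 CPM in control mice against 347 to 461 CPM in cKOt mice for endothelium, and 67.9 to 129 against 75.1 to 109 CPM for macrophages. Of 4 lymphocyte markers only Cd3e was retained, below 1 CPM on average. The part of these cells in the results was not tested. The fibroblast and smooth muscle lists had 3 of 5 and 2 of 4 genes lower, podocytes 1 of 5 higher, and the proximal tubule 3 higher and 1 lower of 5. In the thick ascending limb 3 were higher and 1 lower of 4, in the distal convoluted tubule 2 of 3 were higher, and in the collecting duct 1 was higher and 2 lower of 4.

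Averaged over the 6 time points, all 5 repressors were lower in cKOt than in control mice, in a comparison where 23.1% of the retained genes were lower and 26.8% higher. Ciart had the largest fold change of the 5, with a log2 fold change of -2.63 (SE 0.16) and an adjusted p of 1.13e-19, followed by Nr1d2 with -1.99 (SE 0.060) and 1.47e-31 and by Nr1d1 with -1.38 (SE 0.11) and 1.52e-15. The DEC genes moved far less, by -0.36 (SE 0.064) for Bhlhe40 (adjusted p = 4.46e-06) and by -0.35 (SE 0.094) for Bhlhe41 (adjusted p = 0.00180). The median over all retained genes was 0.012, and the median absolute log2 fold change was 0.10. By absolute log2 fold change, Ciart ranked 31, Nr1d2 63, Nr1d1 144, Bhlhe40 1653, and Bhlhe41 1803 among the 15546 genes. Kidney RNA is a bulk measurement, in which fewer cells of a type and less RNA per cell cannot be told apart. Each of these p values judges a difference against the spread between mice of a group that is left after the RUVs factors. Replicate numbers stand for separate animals. A list of samples from the study assigns the mice to 6 batches of 9 to 12, without naming the step they refer to, with at most 2 mice of a group in a batch, which is too few for values within a batch. With the batch as a term in place of the RUVs factors, all 5 passed in the same direction.

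Per kilobase of exon, which allows genes to be compared, Bhlhe40 and Nr1d2 were the most abundant of the 5 in control mice, with 31.6 and 29.0 CPM per kb as a mean over the day. Nr1d1 followed with 9.51, Ciart with 4.09, and Bhlhe41 with 0.668 CPM per kb. In cKOt mice the levels were 24.4 for Bhlhe40, 6.95 for Nr1d2, 3.12 for Nr1d1, 0.503 for Bhlhe41, and 0.464 CPM per kb for Ciart. Ciart ranked above Bhlhe41 in control mice and below it in cKOt mice.

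**Figure D1:**
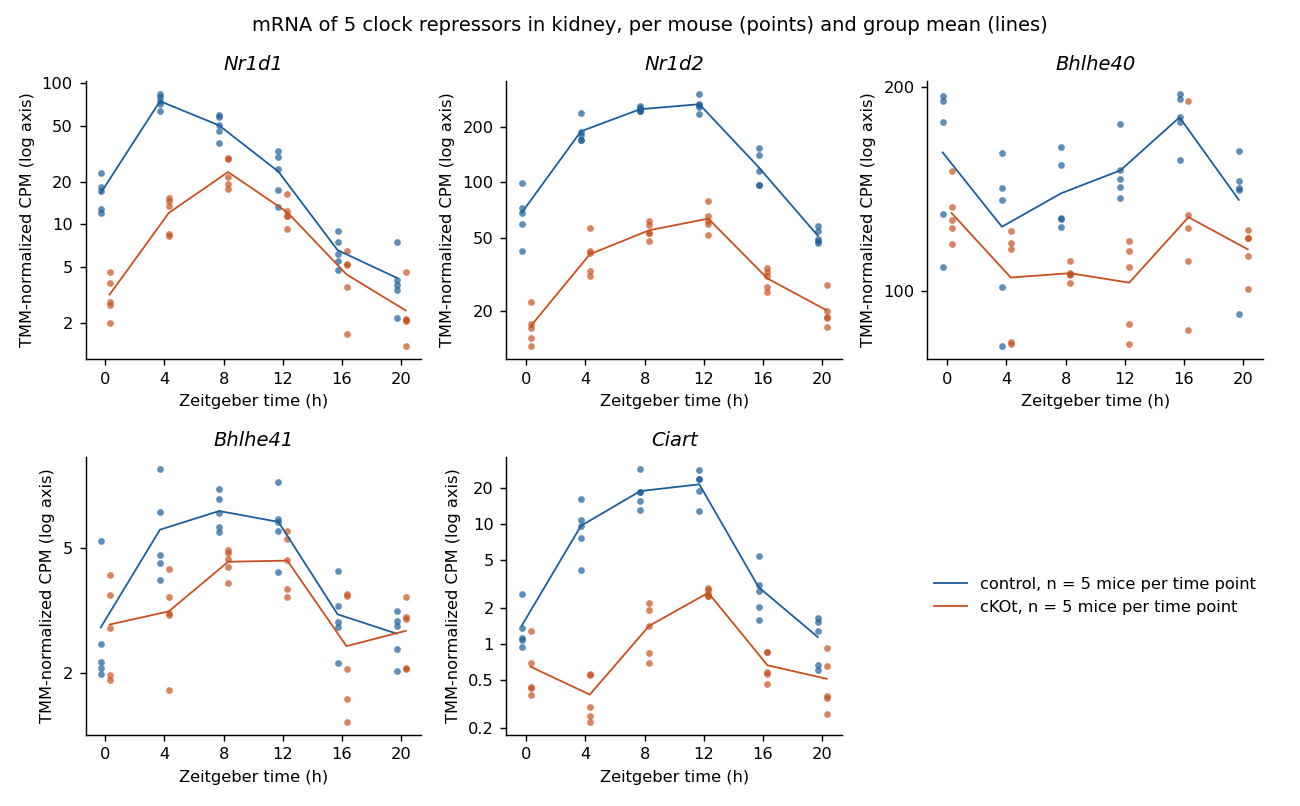
TMM-normalized CPM of the 5 repressors (log axis) against zeitgeber time in hours, with a point for each mouse and lines through the means of 5 control (blue) and 5 cKOt (orange) mice. Nr1d2 of cKOt mice lies below that of control mice at every time point, whereas those of Bhlhe41 are apart only at ZT8.

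Nr1d1 (ENSMUSG00000020889, chromosome 11 from 98767932 to 98775333, minus strand) encodes REV-ERBα, a receptor that represses Bmal1. At ZT0 it measured 11.9, 12.8, 17.3, 18.3 and 22.9 CPM in the control mice and 1.99, 2.67, 2.79, 3.83 and 4.56 CPM in the cKOt mice. At ZT4 the values were 63.9, 70.8, 74.2, 79.3 and 84.2 CPM in the control mice and 8.28, 8.47, 13.4, 14.7 and 15.3 CPM in the cKOt mice. At ZT8 they were 37.8, 45.4, 50.6, 57.2 and 59.5 CPM in the control mice and 17.7, 19.3, 21.7, 29.1 and 29.2 CPM in the cKOt mice. The genotypes did not overlap at these 3 time points, with cKOt mice below, and the gap in CPM was widest at ZT4. At ZT12 Nr1d1 stood at 13.2, 17.6, 24.6, 29.8 and 32.9 CPM in the control mice and 9.18, 11.4, 11.5, 12.4 and 16.3 CPM in the cKOt mice. At ZT16 there were 4.75, 5.45, 6.15, 7.46 and 8.90 CPM in the control mice and 1.66, 3.58, 5.11, 5.23 and 6.44 CPM in the cKOt mice. At ZT20 the levels were 2.15, 3.43, 3.70, 4.01 and 7.51 CPM in the control mice and 1.36, 2.05, 2.08, 2.12 and 4.61 CPM in the cKOt mice. The ranges overlapped at the last 3 time points, with the means of cKOt mice below those of control mice at each of them. The log2 fold change was -2.39 (SE 0.27) at ZT0, -2.38 (SE 0.24) at ZT4, -1.18 (SE 0.21) at ZT8, and -0.90 (SE 0.23) at ZT12, with adjusted p values of 6.55e-09, 6.78e-11, 3.23e-05, and 0.00256. It was -0.59 (SE 0.29) at ZT16 and -0.83 (SE 0.33) at ZT20, which did not pass (adjusted p = 0.148 and 0.0923). The difference at ZT20 passed in limma-trend (adjusted p = 0.0214), in DESeq2 (adjusted p = 0.0243), and without replicate 1 of every group, where it was -1.30 (adjusted p = 0.0172).

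In control mice Nr1d1 was highest at ZT4 (74.5 ± 7.79 CPM, SD, n = 5) and lowest at ZT20 (4.16 ± 2.00 CPM), a ratio of means of 17.9. In cKOt mice the highest mean moved to ZT8 (23.4 ± 5.43 CPM, SD, n = 5), the lowest was again at ZT20 (2.44 ± 1.25 CPM), and the ratio was 9.58. The order of the means in control mice was ZT4, ZT8, ZT12, ZT0, ZT16, and ZT20, and among neighbours in that order ZT8 differed from ZT12 (adjusted p = 0.00487) and ZT0 from ZT16 (adjusted p = 0.000255). The ranges of ZT4 and ZT8 did not overlap in CPM, but that pair did not pass in the fit (log2 difference -0.47, SE 0.20, adjusted p = 0.579). In cKOt mice the order was ZT8, ZT12, ZT4, ZT16, ZT0, and ZT20, and of the neighbours only ZT4 and ZT16 passed (adjusted p = 3.17e-05). Here too the ranges of ZT8 and ZT12 did not overlap in CPM, while the pair did not pass in the fit. ZT12 lay below ZT8 with a log2 difference of -0.73 (SE 0.24, adjusted p = 0.237 in the edgeR fit). Pooled over the 15 pairs of time points, 9.09% of tests over retained genes passed in control and 7.44% in cKOt mice. The 3′ ends of Nr1d1 and of Thra, the thyroid hormone receptor α gene on the opposite strand, share 263 exon bases, 8.55% of the exons of Nr1d1. Thra was higher in cKOt than in control mice, at 87.5 ± 11.3 CPM against 38.0 ± 7.38 CPM (SD, n = 30 each), with a log2 fold change of 1.24 (SE 0.025) and an adjusted p of 1.56e-43. The libraries kept the strand, and whether counting used it is not given in the sources used here. The part of the shared bases in the counts was not tested.

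Nr1d2 (ENSMUSG00000021775, chromosome 14 from 18204054 to 18239127, minus strand) encodes REV-ERBβ, which overlaps in function with REV-ERBα. At ZT0 its values were 42.4, 59.2, 68.4, 72.8 and 98.5 CPM in the control mice and 12.9, 14.2, 16.2, 17.0 and 22.4 CPM in the cKOt mice. For ZT4 they were 169, 169.6, 179, 187 and 238 CPM in the control mice and 30.9, 33.0, 41.1, 42.1 and 56.1 CPM in the cKOt mice. For ZT8 there were 243, 243, 245, 251 and 259 CPM in the control mice and 48.0, 53.0, 53.3, 58.3 and 61.4 CPM in the cKOt mice. At these hours of the light phase the lowest control mouse stood above the highest cKOt mouse each time. At ZT12 the values were 235, 257, 263, 266 and 301 CPM in the control mice and 51.4, 59.2, 61.8, 65.3 and 79.3 CPM in the cKOt mice. At ZT16 they were 96.3, 96.9, 115, 140.5 and 154 CPM in the control mice and 25.4, 27.1, 31.0, 32.6 and 34.1 CPM in the cKOt mice. By ZT20 they were 47.0, 47.7, 49.2, 54.4 and 58.0 CPM in the control mice and 16.4, 18.3, 18.5, 20.1 and 27.7 CPM in the cKOt mice. The genotypes were again apart at each of these times, so that the ranges did not overlap at any of the 6. Over time points the log2 fold change lay between -2.32 (SE 0.15) at ZT4 and -1.38 (SE 0.15) at ZT20, and it passed at each, with adjusted p values from 1.18e-16 to 1.54e-09. The mean of cKOt mice was 0.216 to 0.394 times that of control mice.

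The highest mean of Nr1d2 was at ZT12 in either genotype, 264 ± 24.0 CPM (SD, n = 5) for control mice and 63.4 ± 10.2 CPM (SD, n = 5) for cKOt mice. The ratio of the highest to the lowest mean was 5.16 in control mice, with the lowest at ZT20, and 3.83 in cKOt mice, with the lowest at ZT0. In control mice the order was ZT12, ZT8, ZT4, ZT16, ZT0, and ZT20. The neighbours ZT4 and ZT16 differed (adjusted p = 0.000868), as did ZT16 and ZT0 (adjusted p = 7.40e-05), and no other pair of neighbours passed. The ranges of ZT8 and ZT4 did not overlap in CPM, with a log2 difference of 0.34 (SE 0.14, adjusted p = 0.540 in the edgeR fit). In cKOt mice the order was ZT12, ZT8, ZT4, ZT16, ZT20, and ZT0, and no pair of neighbours passed. Nearest to passing was ZT20 against ZT16, with a log2 difference of -0.70 (SE 0.16, adjusted p = 0.0673 in the edgeR fit). The ends of the order passed, as ZT12 exceeded ZT0 by 1.83 on the log2 scale (SE 0.16, adjusted p = 2.85e-11).

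Ciart (ENSMUSG00000038550, chromosome 3 from 95878503 to 95882251, minus strand) encodes CHRONO. In cKOt mice its mean per exon length was the lowest of the 5, close to that of Bhlhe41. At ZT0 it measured 0.939, 1.09, 1.13, 1.35 and 2.61 CPM in the control mice and 0.374, 0.434, 0.437, 0.697 and 1.30 CPM in the cKOt mice. For ZT4 Ciart was found at 4.12, 7.62, 9.55, 10.9 and 16.2 CPM in the control mice and 0.224, 0.254, 0.301, 0.555 and 0.564 CPM in the cKOt mice. At ZT8 it was found at 13.2, 15.5, 18.4, 18.4 and 28.6 CPM in the control mice and 0.699, 0.840, 1.42, 1.91 and 2.21 CPM in the cKOt mice. The groups overlapped at ZT0 only through 1 cKOt mouse at 1.30 CPM, and at ZT4 and ZT8 they were far apart. At ZT12 Ciart stood at 12.9, 19.0, 23.5, 23.7 and 28.1 CPM in the control mice and 2.50, 2.52, 2.63, 2.82 and 2.91 CPM in the cKOt mice. At ZT16 the values were 1.58, 2.03, 2.79, 3.10 and 5.39 CPM in the control mice and 0.467, 0.568, 0.590, 0.852 and 0.854 CPM in the cKOt mice. At ZT20 there were 0.613, 0.664, 1.29, 1.52 and 1.64 CPM in the control mice and 0.261, 0.355, 0.371, 0.651 and 0.932 CPM in the cKOt mice. The genotypes did not overlap at ZT12 and ZT16 and overlapped at ZT20. In raw reads the range was 4 to 55 per mouse in cKOt mice and 11 to 539 in control mice, so the low values rest on few counts. The log2 fold change was -4.62 (SE 0.41) at ZT4, -3.67 (SE 0.31) at ZT8, -3.05 (SE 0.28) at ZT12, and -2.11 (SE 0.40) at ZT16, with adjusted p values of 1.22e-12, 1.02e-13, 2.10e-12, and 5.87e-05. It was -1.10 (SE 0.45) at ZT0 and -1.21 (SE 0.48) at ZT20, and did not pass (adjusted p = 0.104 and 0.0913). These last differences passed in limma-trend and in DESeq2, with adjusted p values of 0.0283 and 0.0395 at ZT0 and of 0.0201 and 0.0251 at ZT20.

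In control mice the means of Ciart ran from 1.14 ± 0.479 CPM at ZT20 to 21.4 ± 5.77 CPM at ZT12 (SD, n = 5 each), a ratio of means of 18.7. In cKOt mice it lay between 0.380 ± 0.167 CPM at ZT4 and 2.68 ± 0.182 CPM at ZT12, a ratio of 7.05. The 5 cKOt mice at ZT12 were close together, from 2.50 to 2.91 CPM, and above every other cKOt mouse. The order in control mice was ZT12, ZT8, ZT4, ZT16, ZT0, and ZT20, and of the neighbours ZT4 and ZT16 differed (adjusted p = 3.87e-05). In cKOt mice the order was ZT12, ZT8, ZT16, ZT0, ZT20, and ZT4, with no neighbours that passed. At ZT4 the level was high in control mice and the lowest of the day in cKOt mice.

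Bhlhe40 (ENSMUSG00000030103, chromosome 6 from 108660629 to 108666925, plus strand), which encodes DEC1, was abundant and nearly flat. Its range per time point in control mice was 108 to 194 CPM at ZT0, 82.8 to 159.8 at ZT4, 124 to 163 at ZT8, 137 to 176 at ZT12, 156 to 196 at ZT16, and 92.4 to 161 CPM at ZT20. In cKOt mice it was 117 to 151 CPM at ZT0, 83.6 to 123 at ZT4, 103 to 111 at ZT8, 83.5 to 118 at ZT12, 87.7 to 191 at ZT16, and 101 to 123 CPM at ZT20. Only at ZT8 and ZT12 were all cKOt mice below all control mice. The log2 fold change was negative at all 6 time points, from -0.55 (SE 0.16) at ZT12 to -0.16 (SE 0.16) at ZT4. It passed at ZT12 (adjusted p = 0.00827) and at ZT16 (-0.49 (SE 0.16), adjusted p = 0.0195), where the ranges overlapped through 1 cKOt mouse at 191 CPM. That mouse was the one marked for removal by the authors, and without it the log2 fold change at ZT16 was -0.67 (adjusted p = 0.00123). The call at ZT16 was lost when replicate 1, 2, 3, or 5 of every group was left out, and that at ZT12 without replicate 1.

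The highest mean of Bhlhe40 in control mice was 180.5 ± 15.5 CPM at ZT16 and the lowest 124 ± 31.5 CPM at ZT4 (SD, n = 5 each), a ratio of 1.45. In cKOt mice the means ran from 103 ± 15.5 CPM at ZT12 to 130.3 ± 12.7 CPM at ZT0, a ratio of 1.27. No neighbours in the order of the levels differed in either genotype. The extremes in control mice, ZT16 and ZT4, differed by 0.55 on the log2 scale (SE 0.16, adjusted p = 0.0137), while the test over all 6 time points did not pass (adjusted p = 0.0704). In limma-trend that test passed (adjusted p = 0.0341), as it did without the marked mouse (adjusted p = 0.0413).

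Bhlhe41 (ENSMUSG00000030256, chromosome 6 from 145858243 to 145865558, minus strand), which encodes DEC2, was the least abundant of the 5 per exon length in control mice, with 27 to 161 raw reads per mouse over both genotypes. In control mice it ranged over 1.99 to 5.27 CPM at ZT0, 3.96 to 8.91 at ZT4, 5.62 to 7.74 at ZT8, 4.22 to 8.15 at ZT12, 2.17 to 4.24 at ZT16, and 2.04 to 3.16 CPM at ZT20. In cKOt mice it ranged over 1.90 to 4.10 CPM at ZT0, 1.77 to 4.31 at ZT4, 3.88 to 4.94 at ZT8, 3.49 to 5.69 at ZT12, 1.40 to 3.57 at ZT16, and 2.07 to 3.51 CPM at ZT20. The groups were apart only at ZT8. The log2 fold change passed at ZT4 alone, with -0.80 (SE 0.24) and an adjusted p of 0.0151, a call that was lost without replicate 2 or 4 of every group (adjusted p up to 0.194). At ZT8 it was -0.49 (SE 0.21) and at ZT12 -0.46 (SE 0.22) (adjusted p = 0.100 and 0.133). At ZT16, ZT20, and ZT0 it was -0.32 (SE 0.24), -0.090 (SE 0.25), and 0.087 (SE 0.24) (adjusted p = 0.393, 0.866, and 0.872). The means were highest at ZT8 in control mice (6.57 ± 0.890 CPM) and at ZT12 in cKOt mice (4.57 ± 0.976 CPM; SD, n = 5 each), with ratios of the highest to the lowest of 2.46 and 1.87. Among neighbours in the order of the levels, ZT4 and ZT16 differed in control mice (adjusted p = 0.00556) and none did in cKOt mice. The change over the day in cKOt mice lost its call without replicate 1 (adjusted p = 0.0610). An uncertain transcript model on the opposite strand (Gm43909) shares 1280 bases, 19% of the exons of Bhlhe41, and an antisense gene (0610040F04Rik) shares 118 bases (2.51%) with Bhlhe40.

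By time point, the number of the 5 repressors that passed as lower in cKOt mice was 2 at ZT0, 4 at ZT4, 3 at ZT8, 4 at ZT12, 3 at ZT16, and 1 at ZT20, and none passed as higher. Among all retained genes the shares that passed as lower were 5.47%, 6.28%, 9.19%, 10.7%, 9.60%, and 7.69% at the same times. All cKOt mice were below all control mice for 2 repressors at ZT0, 3 at ZT4, 5 at ZT8, 3 at ZT12, 2 at ZT16, and 1 at ZT20. The same was true of 3.24%, 5.47%, 4.46%, 4.67%, 4.64%, and 3.83% of the retained genes. ZT8 was the only time at which all 5 were apart, and ZT20 the time at which Nr1d2 alone was.

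**Figure D2:**
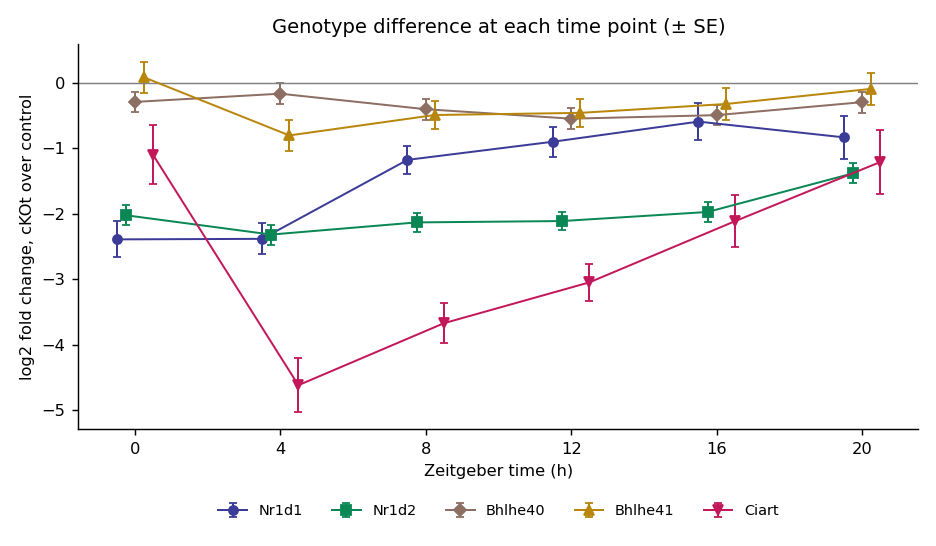
Log2 fold change of cKOt over control mice (± SE, edgeR fit with 5 mice per group) against zeitgeber time in hours, with a symbol and colour for each repressor and a grey line at 0. Ciart is lowest at ZT4, Nr1d1 is lowest at ZT0 and ZT4, Nr1d2 lies between -2.32 and -1.38, and Bhlhe40 and Bhlhe41 lie between -0.80 and 0.09.

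Whether the genotype difference itself varied between time points was tested by the interaction, which passed for 3.00% of the retained genes. It passed for Nr1d1 (adjusted p = 0.000426) and Ciart (adjusted p = 0.000311). It did not pass for Nr1d2 (adjusted p = 0.0703), whose p fell to 0.0372 in limma-trend, 0.0145 in DESeq2, and 0.0214 without a control mouse at ZT0 that stood apart. For Bhlhe41 and Bhlhe40 the adjusted p values were 0.529 and 0.831. Within a genotype, the change over the 6 time points passed in control mice for Nr1d1, Nr1d2, Bhlhe41, and Ciart (adjusted p from 9.95e-20 to 6.13e-07), as for 30.2% of the retained genes. In cKOt mice it passed for the same 4 (adjusted p from 4.47e-14 to 0.00376), against 26.4% of the retained genes. Bhlhe40 passed in neither (adjusted p = 0.0704 and 0.390).

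A cosine with a period of 24 h described when and how strongly each repressor oscillated. The amplitude is the height of the fitted peak over its trough in log2 units, with its SE, over 30 mice of a genotype. Amplitudes, peaks, shifts, and the model weights below are from log2 CPM with a prior count of 2 (added before the logarithm), corrected for the 2 RUVs factors. Those factors were estimated from differences between mice of a group, so the SEs leave out the spread that was removed. Adjusted p values of rhythms are from a cosine in the edgeR fit of the counts. For Nr1d1 it was 4.07 ± 0.23 in control and 3.42 ± 0.23 in cKOt mice, and the peak moved from ZT6.37 ± 0.218 h to ZT8.21 ± 0.257 h, a delay of 1.83 ± 0.34 h. The amplitude in cKOt mice was 84.0% of that in control mice. Nr1d2 had amplitudes of 2.50 ± 0.16 and 1.95 ± 0.12, with peaks at ZT9.17 ± 0.243 h and ZT9.82 ± 0.231 h. This shift of 0.65 ± 0.34 h turned to -0.60 h when a harmonic of 12 h was added, so its direction depends on the curve fitted. For Nr1d1 the shift was then 2.63 h. For Ciart the amplitude was 4.63 ± 0.31 in control and 2.02 ± 0.36 in cKOt mice, 43.7% of the control value, and the peak was 2.28 ± 0.73 h later, at ZT11.4 ± 0.684 h after ZT9.07 ± 0.260 h. With the harmonic of 12 h its amplitudes were 4.65 in control and 2.65 in cKOt mice, with peaks at ZT9.52 and ZT11.14. The prior count weighs most on low counts, such as those of Ciart in cKOt mice. Bhlhe41 had amplitudes of 1.46 ± 0.19 and 0.88 ± 0.20 and peaks at ZT8.53 ± 0.506 h and ZT8.65 ± 0.853 h, 0.12 ± 0.99 h apart, a shift that was 1.42 h with the harmonic of 12 h and -0.82 h without replicate 3.

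A rhythm of 24 h passed in both genotypes for Nr1d1, Nr1d2, Bhlhe41, and Ciart, with adjusted p values up to 7.84e-08 in control and 0.00172 in cKOt mice, as it did for 32.9% and 28.0% of the retained genes. The amplitudes of Bhlhe40, 0.38 ± 0.15 and 0.27 ± 0.11, did not pass (adjusted p = 0.0698 and 0.259), and its fitted peaks, ZT16.1 ± 1.50 h and ZT21.0 ± 1.54 h, have wide errors. Without the control mouse at ZT0 that stood apart, the rhythm of Bhlhe40 in control mice passed (amplitude 0.42, adjusted p = 0.0425). The difference of rhythm passed for 4.24% of the retained genes. It passed for Nr1d1 (adjusted p = 0.000140) and Ciart (adjusted p = 0.00161) and not for Nr1d2 (0.148), Bhlhe41 (0.423), or Bhlhe40 (0.552). The call for Ciart was lost without replicate 3 (adjusted p = 0.0522). Nr1d2 passed when a harmonic of 12 h was added (adjusted p = 0.0342). In the model selection of dryR, the altered-rhythm model, which held 2.37% of the retained genes, had Bayesian information criterion weights near 1 for Nr1d1 and Ciart and of 0.832 for Nr1d2. The shared-rhythm model, with 25.2% of genes, had a weight of 0.842 for Bhlhe41. No model of Bhlhe40 had more than 0.323. The Nr1d2 weight fell below the threshold of 0.65 without replicate 4 (0.603), and that of Bhlhe41 without replicate 1 or 5 (down to 0.552).

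The shape of the curves was also compared with a fit that added the 12 h harmonic. The shares are of the variance between mice in the RUVs-corrected values. For Ciart in cKOt mice the 24 h cosine explained 53.6% and the sum of both 78.8%, whereas in control mice the shares were 88.9% and 89.2%. The level of Ciart in cKOt mice was low from ZT16 to ZT4 and highest at ZT12. For Bhlhe41 the shares were 42.6% and 53.9% in cKOt mice and 67.9% and 68.2% in control mice. For the REV-ERBs the 24 h cosine alone explained 89.1% (Nr1d1, cKOt) to 91.9% (Nr1d1, control). A model with more terms explains at least as much, so these shares are given without a test.

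**Figure D3:**
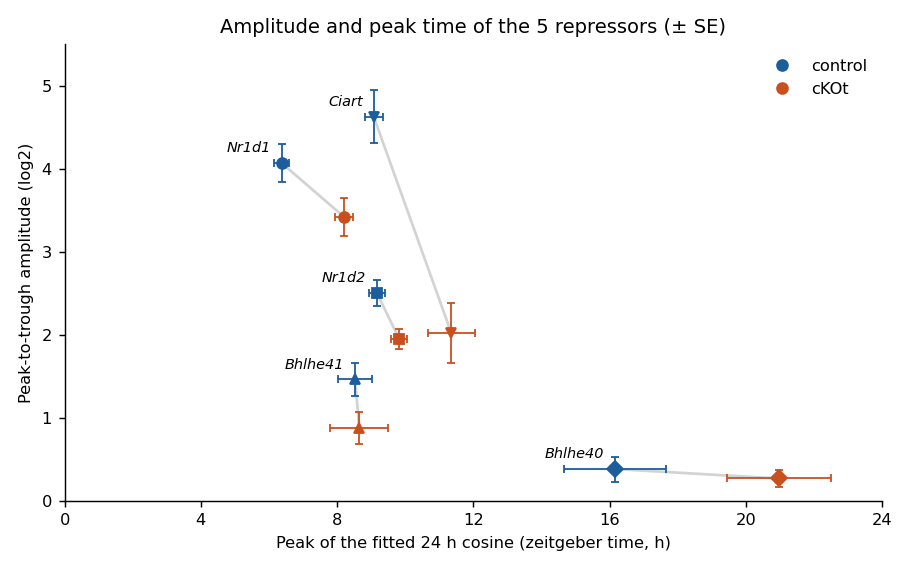
Peak-to-trough amplitude on the log2 scale against the peak of the fitted cosine in zeitgeber hours, with SE in each direction, for control (blue) and cKOt (orange) mice, and a grey line joining the genotypes of a gene. Ciart drops from 4.63 to 2.02 and Nr1d1 moves from ZT6.37 to ZT8.21, while Bhlhe40 lies near 0 with wide errors of its peak.

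The paralogs of a pair were compared within each library by the log2 ratio of their counts, which needs no library size and is not corrected for gene length. The ratio of Nr1d1 to Nr1d2 in control mice was -2.03 ± 0.34 at ZT0, -1.33 ± 0.28 at ZT4, -2.33 ± 0.27 at ZT8, -3.56 ± 0.54 at ZT12, -4.21 ± 0.31 at ZT16, and -3.74 ± 0.62 at ZT20 (SD, n = 5). In cKOt mice it was -2.42 ± 0.71 at ZT0, -1.77 ± 0.61 at ZT4, -1.25 ± 0.41 at ZT8, -2.40 ± 0.40 at ZT12, -2.90 ± 0.67 at ZT16, and -3.15 ± 0.36 at ZT20. The share of Nr1d1 was greatest at ZT4 in control mice and at ZT8 in cKOt mice. All cKOt mice exceeded all control mice at ZT8 and at ZT12, with differences of 1.08 and 1.16. The exact two-sided permutation test gave p = 0.00794 for each, the smallest the test can give, and 0.0476 after adjustment over 12 tests. At ZT16 the difference was 1.31 with an adjusted p of 0.0952 in the exact permutation test, and at ZT20 it was 0.59 (adjusted p = 0.248, same exact test). At ZT0 and ZT4 the ratio differed by -0.39 and -0.44 on average, with overlapping ranges (adjusted p = 0.371 and 0.327, same exact test). With 1 replicate of every group left out, the differences at ZT8 and ZT12 stayed positive. They lost their calls each time (adjusted p from 0.114 to 0.171, exact permutation test of 4 mice against 4). With fewer mice the smallest p that the test can give is larger. The loss of these calls therefore cannot judge how stable the differences are.

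The ratio of Bhlhe40 to Bhlhe41 also varied over the day. In control mice its mean was lowest at ZT8 (4.41 ± 0.27) and highest at ZT0 (5.91 ± 0.51), and in cKOt mice it was lowest at ZT12 (4.51 ± 0.48) and highest at ZT16 (5.78 ± 0.45; SD, n = 5 each). The genotype difference was 0.63 at ZT4 with an adjusted p of 0.143 in the exact permutation test, and between -0.34 and 0.15 at the other time points, with overlapping ranges at all 6. None of these 6 differences passed (smallest unadjusted p = 0.0476, exact permutation test).

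**Figure D4:**
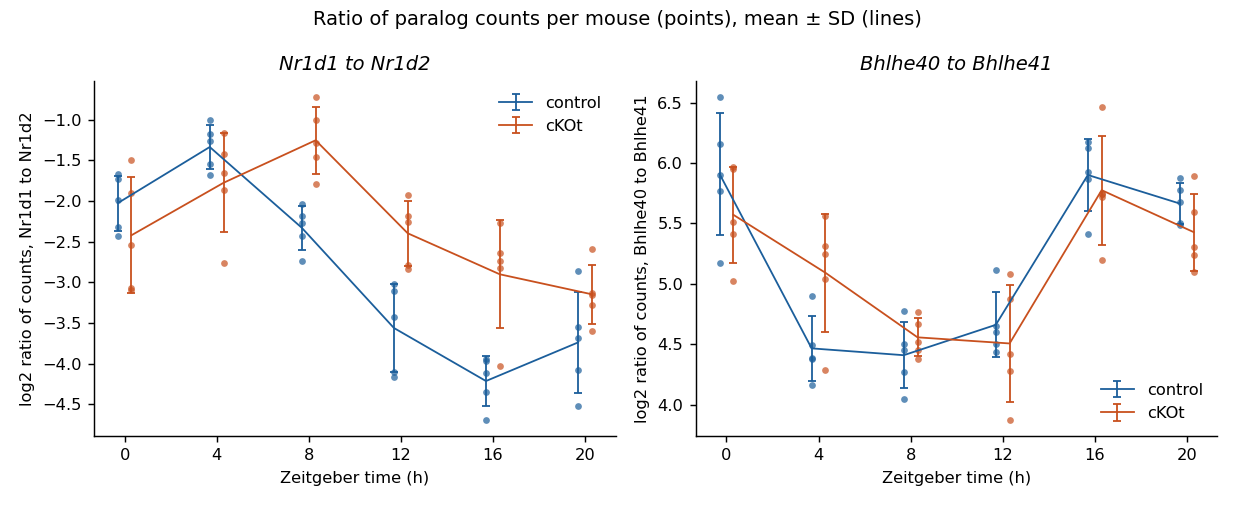
Log2 ratio of counts of Nr1d1 to Nr1d2 (left) and of Bhlhe40 to Bhlhe41 (right) against zeitgeber time in hours, with a point for each mouse and lines for the mean ± SD of 5 control (blue) or 5 cKOt (orange) mice. The left curve of cKOt mice is above that of control mice from ZT8 on and without overlap at ZT8 and ZT12, while the right curves overlap at all times.

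Mice of a group differ from each other, and these deviations were used to ask whether the repressors vary together within a time point. Deviations of log2 CPM from the group mean were correlated over the 30 mice of each genotype, for 10 pairs of genes and 20 relations in all, with permutation tests of 100000 resamples within groups. These values were not corrected for the RUVs factors. Pairs of other genes were not examined, so whether such relations are particular to the repressors was not tested. In control mice 6 pairs passed after adjustment, all among Nr1d2, Bhlhe40, Bhlhe41, and Ciart. The closest was Bhlhe41 with Ciart (Pearson's r = 0.77, permutation adjusted p = 6.00e-04, Spearman's rho = 0.80, permutation adjusted p = 2.00e-04). Next were Nr1d2 with Ciart (r = 0.62, rho = 0.57; permutation adjusted p = 0.0096 and 0.0239) and Bhlhe40 with Bhlhe41 (r = 0.60, rho = 0.56; permutation adjusted p = 0.0237 and 0.0244). Nr1d2 with Bhlhe41 had r = 0.59 and rho = 0.40 (permutation adjusted p = 0.0382 and 0.156). Bhlhe40 with Ciart had r = 0.58 and rho = 0.56 (permutation adjusted p = 0.0179 and 0.0239), and with Nr1d2 r = 0.54 and rho = 0.48 (permutation adjusted p = 0.0315 and 0.0586). Nr1d1 passed with none of the others in control mice, with r between -0.047 and 0.33.

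Without the 2 mice farthest from the median of the first gene, r was 0.71 for Bhlhe41 with Ciart and 0.63 for Nr1d2 with Ciart. Both passed again. The other 4 relations kept their sign, at r from 0.37 to 0.53, and no longer passed (adjusted p from 0.0718 to 0.208). With batch means removed, all 6 passed, with r from 0.62 to 0.76. In cKOt mice only Nr1d1 with Ciart passed (r = 0.48, rho = 0.48; permutation adjusted p = 0.0348 and 0.0559). For that pair r was 0.45 without the 2 farthest mice, which did not pass (permutation adjusted p = 0.112), and 0.52 with batch means removed. For Bhlhe41 with Ciart r was 0.22 in cKOt mice. The difference of r between genotypes was not tested. Ciart had 4 to 55 counts per mouse in cKOt mice and 11 to 539 in control mice.

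**Figure D5:**
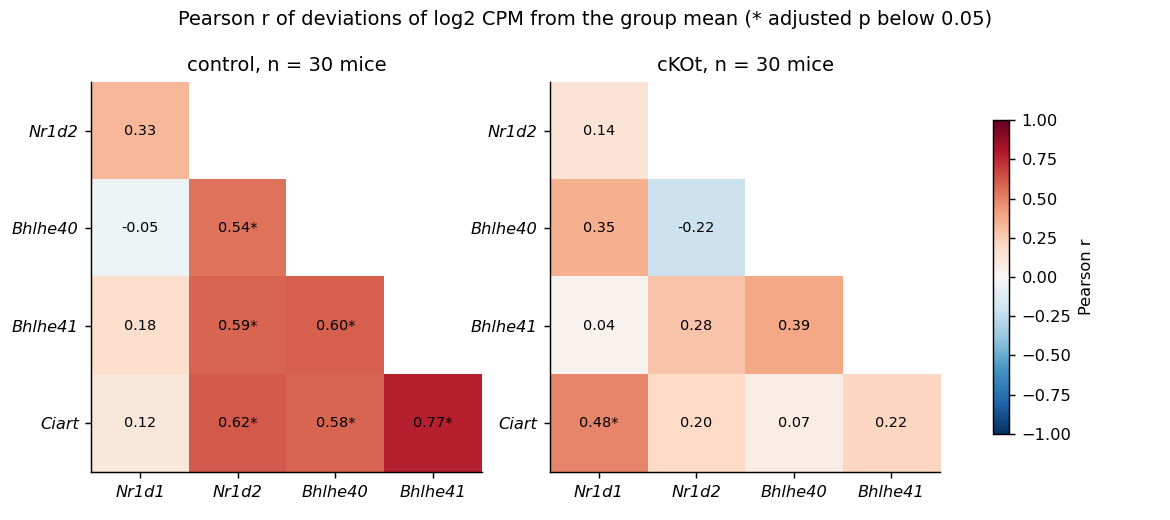
Pearson's r of the deviations of log2 CPM from the group mean for each pair of repressors in 30 control (left) and 30 cKOt (right) mice, on a colour scale from -1 (blue) to 1 (red), with an asterisk where the permutation p adjusted over 20 relations was below 0.05. In control mice the 6 pairs without Nr1d1 have r from 0.54 to 0.77, and in cKOt mice the greatest r is 0.48, of Nr1d1 with Ciart.

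To place each repressor among the other transcripts, the genes with the most similar 12 group means of log2 CPM were listed, out of 13780 with a mean of at least 1 CPM. The coefficient is Pearson's r over the 12 groups, which share genotype and time, and is a description without a test. Closest to Nr1d2 were Slc22a4 (r = 0.98), Degs2 (r = 0.97), Anxa7 (r = 0.97), Ppp2r5a (r = 0.96), Etnppl (r = 0.96). For Ciart they were Slc5a6 (r = 0.96), Tef (r = 0.96), Per3 (r = 0.96), Slc22a4 (r = 0.95), Klf13 (r = 0.95), among them the clock output factor Tef and the period gene Per3. For Bhlhe41 they were Oas1c (r = 0.97), Zmynd12 (r = 0.96), Cplx2 (r = 0.96), Dbp (r = 0.96), Eef2k (r = 0.96), where Dbp is a clock output factor of the same family as Tef. Closest to Nr1d1 were Dhdh (r = 0.94), H2-Q6 (r = 0.93), Cdc25b (r = 0.93), Ubxn10 (r = 0.92), Igfbp3 (r = 0.91), and H2-Q6 belongs to a family of near-identical genes, so its counts are uncertain. For Bhlhe40 they were Pdzk1 (r = 0.96), Rabl6 (r = 0.95), Fam102a (r = 0.95), Hsph1 (r = 0.94), Stk19 (r = 0.94), none of them a core clock gene. No member of the 5 was on the list of another, where r takes in both genotypes. Over the 6 means of control mice alone, r between members ran from -0.52 (Nr1d1 with Bhlhe40) to 0.98 (Nr1d2 with Ciart).

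The genes that the REV-ERBs repress and those they act with were described by lists. In the mean of the log2 differences over the day, 26.8% of all retained genes were higher in cKOt mice and 23.1% lower. Of 6 genes known for REV-ERB response elements, among them Arntl, Npas2, Clock, Nfil3, and Cry1, all 6 were higher in cKOt mice in that mean, with a median log2 fold change of 1.38, beside 0.012 over all retained genes. Npas2, a partner of BMAL1, rose by 3.45 (SE 0.11) on the log2 scale and Cry1, a repressor of the heterodimer, by 1.56 (SE 0.044). Arntl itself, from transcripts counted over the whole gene, was higher only in part of the day. Its log2 fold change was 0.87 (SE 0.23) at ZT4, 2.78 (SE 0.27) at ZT8, and 2.64 (SE 0.27) at ZT12 (adjusted p = 0.00742, 1.27e-11, and 6.32e-11). It was lower in cKOt mice at ZT0 and ZT20, with -0.99 (SE 0.20) and -0.96 (SE 0.20) (adjusted p = 0.000348 and 0.000481), and at ZT16 it was -0.064 (SE 0.21) (adjusted p = 0.874). The mean of these log2 differences over the day was 0.71 (SE 0.10), while the mean level in CPM was 20.7 in cKOt and 22.2 in control mice. Of the 6 corepressor genes, Hdac3 and Tbl1x were higher, by 0.085 (SE 0.020) and 0.070 (SE 0.018), Tbl1xr1 was lower, by -0.10 (SE 0.024), and the other 3 did not pass. The median of the 6 was 0.0075. Of 6 clock activators that were retained, some of them also on the first list, 4 were higher and none lower. Among the period and cryptochrome genes Cry1 and Cry2 were higher, Per1 and Per3 lower, and Per2 did not pass. Per3 fell by 1.34 on the log2 scale (SE 0.07). In the family of Dbp, Tef, Hlf, and Nfil3, Dbp and Tef were lower, by -1.45 (SE 0.10) and -0.57 (SE 0.037), Nfil3 was higher, and Hlf did not pass. Rorb was not retained.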

How the data were processed

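RNA-seq was made from 60 mouse kidneys, and the authors deposited raw counts per gene, made from stranded mRNA libraries of single reads with cutadapt 1.8, STAR 2.5.3a, and HTSeq 0.9.1 on GRCm38. The annotation release and the strand setting of the counting are not given in the sources used here. The authors had chosen 5 mice per group from more by RNA integrity and clustering, and 1 deposited cKOt mouse at ZT16 was marked for removal and was kept. Lines that name no gene (5.19 to 7.87% without a feature, 0.708 to 0.927% ambiguous) were left out.

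Retained were genes that reached 1 CPM in any sample (99.9% of counts). edgeR 4.0.16 in R 4.3.3 fitted quasi-likelihood models to 12 groups with TMM library sizes and 2 RUVs factors, with Benjamini-Hochberg adjustment over all retained genes. The RUVs step and dryR's choice among models were written anew, since neither package was installed, and the scripts were tested on simulated data. The alternatives were limma 3.58.1, DESeq2 1.42.0, other filters and scalings, the batch as a term, a replicate block, a 12 h harmonic, and leaving out mice. Named were the 5 repressors, list genes (at most 3 others per list with values), and the 5 genes most similar to each repressor. Genes and lists were chosen with earlier results of these data known. No 2 of the 120 replicate pairs were identical. Intervals cover the spread between mice only, and those of the cosine fits only what the RUVs correction left of it. Values of some list genes are not reported here.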

Additional observations from a re-analysis of the deposited data

Results flagged for a closer look

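In 4 of the 60 groups of 5 mice tested (5 repressors in 12 groups), 1 mouse stood apart from the other 4 by a gap above Dixon's 95% critical value of 0.71 of the range, where chance alone gives about 1 in 20 groups. Nr1d1 was 4.61 CPM in replicate 1 of the cKOt mice at ZT20, and the next mouse was at 2.12 CPM. Nr1d2 was 237.8 CPM in replicate 2 of the control mice at ZT4, with the next at 187 CPM. In replicate 5 of the control mice at ZT0, Bhlhe41 was 5.27 CPM (next 2.49 CPM) and Ciart was 2.61 CPM (next 1.35 CPM).

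The genotype difference varied between time points for Nr1d1 (edgeR interaction, adjusted p = 0.000426) and for Ciart (adjusted p = 0.000311).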

How the results depend on the processing

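The genotype difference over the day kept its direction and its call for all 5 repressors in each of the 15 alternatives. Of the alternative values, 1171 were counted as unchanged, 28 lost a call, 19 gained one, and 11 moved. The lost calls include those of the ratio of Nr1d1 to Nr1d2 with 4 mice against 4, a test whose smallest p is larger. Unchanged means the same call, whatever the sign of a value without a call. Peak shifts and numbers of genes have no call. They were counted as moved when they left a set band around the main value, which was 1 SE for a shift. No difference that passed changed sign, but values without a call or a test did, among them the peak shifts of Nr1d2 and Bhlhe41 (down to -0.60 and -0.82 h) and the differences of Bhlhe41 at ZT0 and ZT20. The cause was not tested. In limma-trend the differences of Ciart at ZT0 (-1.03) and ZT20 (-1.09) and of Nr1d1 at ZT20 (-0.84), the interaction of Nr1d2 (adjusted p = 0.0372), and the change over the day of Bhlhe40 in control mice (adjusted p = 0.0341) passed. In DESeq2 those of Ciart at ZT0 (-1.12) and ZT20 (-1.23), Nr1d1 at ZT20 (-0.85), Bhlhe40 at ZT8 (-0.42), and the interaction of Nr1d2 (adjusted p = 0.0145) passed. Retained genes with an interaction numbered 467, 262 without RUVs factors, 309 with the batch in their place, 689 in DESeq2, and 235 to 423 with 1 replicate left out. With the 12 h harmonic, peak shifts were 2.63 h (Nr1d1), -0.60 h (Nr1d2), 9.62 h (Bhlhe40), and 1.42 h (Bhlhe41), and the rhythm difference of Nr1d2 passed (adjusted p = 0.0342). Without the marked mouse, Bhlhe40 passed at ZT8 (-0.41) and in its change over the control day (adjusted p = 0.0413). Without the control mouse at ZT0 that stood apart, an alternative chosen after seeing the data, the interaction of Nr1d2 (adjusted p = 0.0214) and the amplitude of Bhlhe40 in control mice (0.42) passed, and r of Nr1d2 with Bhlhe41 (0.39) did not. With RUVs-corrected values r of Nr1d1 with Nr1d2 was 0.48 and passed. Without the 2 farthest mice r no longer passed for Nr1d2 with Bhlhe40 (0.37) and Bhlhe41 (0.39), Bhlhe40 with Bhlhe41 (0.53) and Ciart (0.45), and, in cKOt mice, Nr1d1 with Ciart (0.45). With 1 replicate left out, the ranges for Bhlhe40 were 0.0376 to 0.265 (adjusted p of the change over the control day), -0.56 to -0.49 (ZT12), -0.73 to -0.37 (ZT16), and 3.70 to 7.25 h (peak shift). For Bhlhe41 they were 0.552 to 0.955 (model weight), 0.00651 to 0.0610 (adjusted p of the change over the cKOt day), and -0.97 to -0.59 (ZT4). For Nr1d1 they were -1.30 to -0.51 (ZT20) and 1.59 to 2.25 h (peak shift), for Nr1d2 0.603 to 0.856 (model weight) and 0.0372 to 0.324 (adjusted p of the interaction), and for Ciart 0.00606 to 0.0522 (adjusted p of the rhythm difference). The ratio of Nr1d1 to Nr1d2 differed by 0.96 to 1.17 at ZT8 and by 0.98 to 1.41 at ZT12. There 4 mice against 4 gave adjusted p values of 0.114 to 0.171 in the exact permutation test and did not pass. So few mice leave that test little room to pass after adjustment. The replicate block changed 0 of 77 results. Mice of the same number did not deviate together (mean r of 0.00433 over 330 pairs, against -0.00103 over 1320 pairs of different numbers, and 12 of 60 mice correlated best with their own number in the other genotype), so the numbers do not pair mice. Low counts limit Ciart in cKOt mice and Bhlhe41.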
